A study of Mus musculus with 8 samples.

Results

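Chemokine receptor genes were described in RNA of mouse liver macrophages, with 4 libraries from animals on western diet (WD) set against 4 from animals on normal diet (ND). Receptor genes were taken from the authors' deposited table by symbol: Ccr, Cxcr, Xcr, Cx3cr or Ackr followed by a number, or a symbol that starts with Ccrl. This found 11 of the 2386 listed genes, of which 7 code for typical receptors (Ccr2, Ccr3, Ccr7, Ccr9, Cxcr1, Cxcr6 and Xcr1) and 4 for atypical receptors (Ackr1, Ackr2, Ackr3 and Ackr4). All mice were C57BL/6, a common inbred strain, and the series design gives 4 of them for each diet. The sources used here do not give their age or sex, what the diets contained, how long they were fed or how macrophages were isolated. The table names its groups WDV and NDV without explaining the V, and it is assumed that they are the WD and the ND libraries. It holds 1 mean count, 1 log2 fold change (WD over ND) and 1 standard error (SE) for each gene over all libraries. No single library's values or depth were analysed here.

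Chemokines are small secreted proteins that direct the movement of leukocytes. Typical chemokine receptors span the membrane and pass the signal to inhibitory G proteins, after which the cell migrates along the gradient. Atypical receptors bind chemokines without this G protein signal, and take up, transport or present them instead. In the liver, circulating leukocytes reach the tissue through the sinusoids, whose lining cells lie next to Kupffer cells, the resident macrophages.

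The receptor classes stood on opposite sides of the comparison. All 4 listed atypical receptor genes fell with western diet, 2.65-fold to 18.0-fold, and 6 of the 7 listed typical receptor genes rose, 2.22-fold to 4.98-fold, with an adjusted p below 0.05 according to the authors' deposited table. The exception was Ccr3, whose adjusted p was 0.0578. The table lists a gene only at a p-value below 0.05 and a fold change beyond 2-fold, and most listed genes were called, 526 of 706 with a positive fold change and 1464 of 1680 with a negative one. The counts are therefore read against fixed lists of the family. Of 19 typical receptor genes of the mouse, 6 rose, none fell, Ccr3 was listed without passing and 12 were not listed. Of the 5 atypical receptor genes on the fixed list, counting Ccrl2, 4 fell and Ccrl2 was not in the authors' deposited table. Among the 17531 genes tested by the authors, 3.0% were called higher and 8.35% lower by the same rule, against 31.6% of typical receptors called higher and 80.0% of atypical receptors called lower. For a gene that is not listed, it is unknown whether it was measured and missed a limit.

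**Figure D1:**
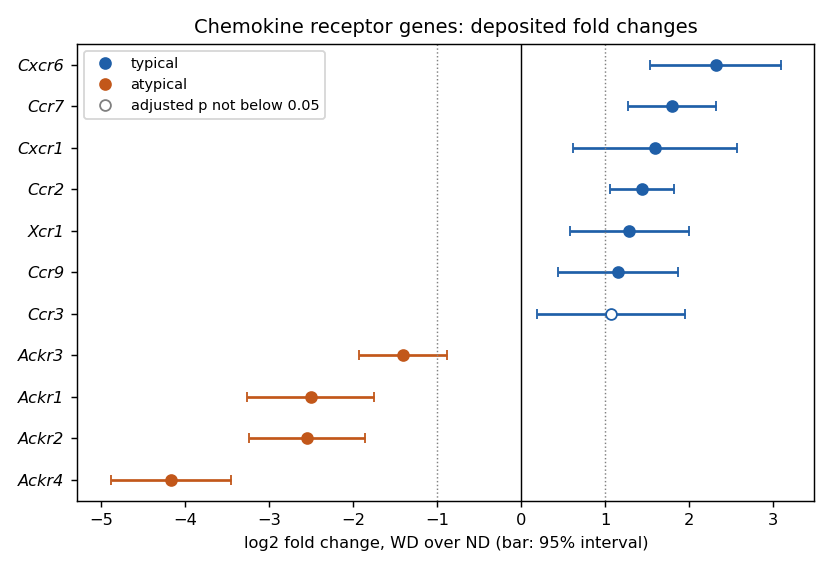
Log2 fold change, WD over ND, of the 11 receptor genes of the authors' deposited table (points), with 95% intervals computed from the deposited SE (bars); dotted lines mark 2-fold and the open point did not pass an adjusted p of 0.05. The 7 typical receptors lie to the right of 0 and the 4 atypical receptors to the left, and the interval of Ackr4 lies below those of the other receptors; differences between genes, which share libraries, were not tested.

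The coding sequences were compared at the site best known for telling the classes apart. Many typical receptors carry a conserved run of residues after the third membrane helix, called the DRY motif, through which they couple to G proteins, and which is altered in some atypical receptors. The stretches below are GENCODE M21 transcript sequence on the GRCm38 genome, 5′ to 3′ on the coding strand. The capitals mark the 7 codons that align with this motif in Ccr2, and the lower case letters the 12 bases on either side.
Ackr4 (chr9:104099309-104099353, minus strand): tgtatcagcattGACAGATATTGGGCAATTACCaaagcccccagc
Ackr2 (chr9:121908966-121909010, plus strand): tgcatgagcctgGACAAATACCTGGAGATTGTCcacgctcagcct
Ackr1 (chr1:173332483-173332527, minus strand): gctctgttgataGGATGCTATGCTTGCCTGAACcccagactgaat
Ackr3 (chr1:90214229-90214273, plus strand): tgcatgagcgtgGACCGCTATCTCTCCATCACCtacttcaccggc
Cxcr6 (chr9:123810326-123810370, plus strand): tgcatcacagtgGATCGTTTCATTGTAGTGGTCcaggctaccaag
Ccr7 (chr11:99145606-99145650, minus strand): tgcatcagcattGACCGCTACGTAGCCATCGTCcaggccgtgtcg
Cxcr1 (chr1:74192415-74192459, minus strand): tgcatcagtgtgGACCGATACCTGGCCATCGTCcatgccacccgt
Ccr2 (chr9:124106120-124106164, plus strand): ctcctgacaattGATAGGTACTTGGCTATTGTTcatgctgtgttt
Xcr1 (chr9:123856255-123856299, minus strand): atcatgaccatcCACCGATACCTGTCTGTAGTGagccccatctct
Ccr9 (chr9:123779669-123779713, plus strand): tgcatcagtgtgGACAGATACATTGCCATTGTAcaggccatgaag
Ccr3 (chr9:124029017-124029061, plus strand): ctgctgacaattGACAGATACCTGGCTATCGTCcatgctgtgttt

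For each of the 7 positions the residue most common among the 7 typical receptors was taken, and codons for that residue were counted. The typical receptors set this standard themselves, which favours them in the count. Ccr2, Ccr3 and Cxcr1 had it at all 7 positions, and Ccr7 and Ccr9 at 6. Ackr2, Ackr3 and Ackr4 matched at 5 positions and Ackr1 at 1. The typical receptors Xcr1 and Cxcr6 matched at 4 and 3 positions, so that the stretch did not separate the classes. At the first 3 positions, the DRY residues themselves, Ackr3 and Ackr4 matched at all 3, Ackr2 at 2 and Ackr1 at 1, and among typical receptors Xcr1 and Cxcr6 at 2 and the other 5 at all 3. Over the whole coding sequence, aligned residues were identical at a median of 37.8% between pairs of typical receptors and of 28.4% between pairs of atypical receptors. Between a typical and an atypical receptor the median was 31.5%, above that among atypical receptors. The pair with the highest identity, 56.9%, was Ccr2 and Ccr3.

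Ackr4 codes for the scavenger of the homeostatic chemokines CCL19, CCL21 and CCL25, and had the largest difference among the listed receptors. Per the authors' deposited table, its mean normalized count over both diets was 82.2 and its log2 fold change was -4.17 ± 0.37 (SE), with an adjusted p of 5.80e-28. With 4 libraries a diet, these values imply a mean normalized count of 8.66 in WD libraries and 156 in ND libraries. The 95% interval of the fall ran from 10.9-fold to 29.6-fold. By the size of the fall the gene ranked 37th of 1680 listed genes with a negative fold change. Ackr4 (ENSMUSG00000079355, chromosome 9, 104084157 to 104126933, mm10) shares 8.90% of its exonic bases with Acad11 on the opposite strand, which was not listed. The sources used here do not say whether reads were counted by strand.

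Ackr2 and Ackr1, which bind inflammatory chemokines, fell by almost the same amount. Ackr2 is a scavenger of inflammatory CC chemokines (ENSMUSG00000044534, chromosome 9, 121898355 to 121911074). The authors' deposited table gave it a log2 fold change of -2.55 ± 0.35 at a mean normalized count of 126 (adjusted p 8.77e-12). The implied means were 36.9 in WD libraries and 216 in ND libraries. Ackr1, known as the Duffy antigen receptor, carries chemokines across venular endothelium (ENSMUSG00000037872, chromosome 1, 173331886 to 173333750). The authors' deposited table gave it -2.51 ± 0.39 at a mean normalized count of 58.0 (adjusted p 1.61e-09), which implies 17.4 in WD libraries and 98.7 in ND libraries. The 95% intervals of these falls were 3.63-fold to 9.42-fold for Ackr2 and 3.36-fold to 9.61-fold for Ackr1. Ackr1 shares 25.7% of its exonic bases with Cadm3, a cell adhesion gene on the same strand, so that reads from the shared part could be assigned to either gene. Cadm3 also fell, at -1.51 ± 0.35 in the authors' deposited table, and the value of Ackr1 is uncertain for this reason.

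Ackr3 binds CXCL12 and lowers its level around the cell. Among the atypical receptors it had the highest mean normalized count, 313, and the smallest difference, -1.40 ± 0.27, in the authors' deposited table (adjusted p 2.00e-06; ENSMUSG00000044337, chromosome 1, 90203980 to 90216751). The implied means were 172 in WD libraries and 454 in ND libraries, and the 95% interval of the fall, 1.84-fold to 3.81-fold, included 2-fold. Summed over the atypical receptors, the implied mean was 234 in WD libraries and 924 in ND libraries. Per kilobase of exonic length the order of the implied levels in WD libraries was Ackr3 (51.2), Ackr1 (12.4), Ackr2 (11.8) and Ackr4 (1.61). In ND libraries it was Ackr3 (136), Ackr1 (70.2), Ackr2 (69.0) and Ackr4 (28.9). The spread over libraries is unknown, so that neighbours in this order cannot be told apart by it.

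**Figure D2:**
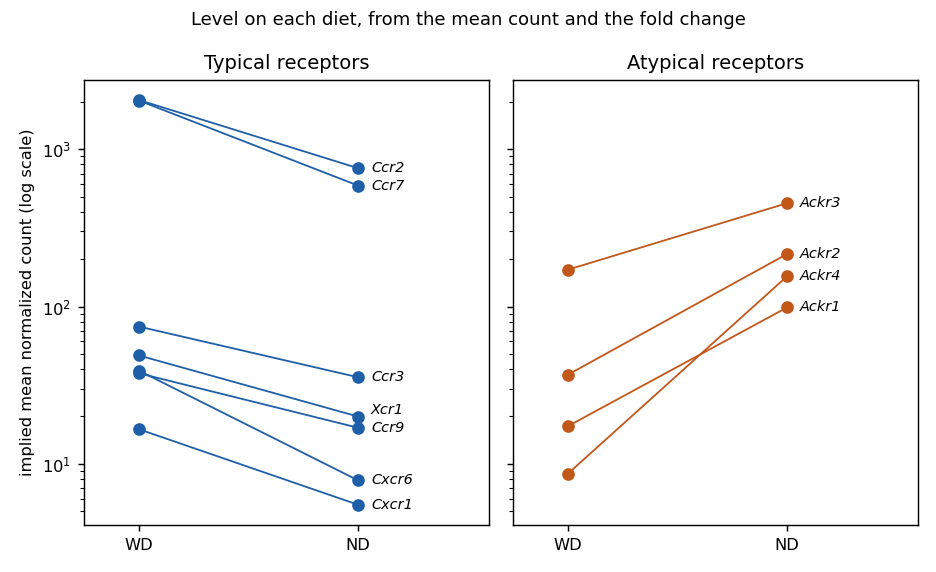
Mean normalized count implied for WD and ND libraries (log axis) by the mean count and the fold change of the authors' deposited table, for typical (left) and atypical (right) receptor genes; a line joins the values of 1 gene. Ccr2 and Ccr7 lie far above the other typical receptors on both diets, and Ackr4 is the lowest of the atypical receptors in WD libraries but lies above Ackr1 in ND libraries.

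Ccr2 and Ccr7 made up most of the typical receptor signal. Ccr2, the receptor for CCL2 by which monocytes leave bone marrow and enter inflamed tissue, had a mean normalized count of 1408 and a log2 fold change of 1.44 ± 0.20 in the authors' deposited table (adjusted p 5.19e-12; ENSMUSG00000049103, chromosome 9, 124101950 to 124113557). The implied means were 2058 in WD libraries and 758 in ND libraries, and the 95% interval of the rise was 2.08-fold to 3.54-fold. Ccr7 guides mature dendritic cells and T cells to lymph nodes along CCL19 and CCL21 (ENSMUSG00000037944, chromosome 11, 99144196 to 99155077). Its mean normalized count was 1315 and its log2 fold change 1.80 ± 0.27 according to the authors' deposited table (adjusted p 5.03e-10). This implies 2041 in WD libraries and 588 in ND libraries, with a 95% interval of 2.41-fold to 5.0-fold. Together the pair gave 95% of the summed implied mean of the 7 typical receptors in WD libraries and 94% in ND libraries. Per kilobase of exonic length, Ccr7 stood at 1032 and Ccr2 at 304 in WD libraries, against 297 and 112 in ND libraries.

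Cxcr6 had the largest rise among the listed receptors and a low level on both diets. It is the receptor for CXCL16 and marks T and NK cell populations that reside in the liver (ENSMUSG00000048521, chromosome 9, 123806475 to 123811760). Its log2 fold change was 2.32 ± 0.40 at a mean normalized count of 23.5 in the authors' deposited table (adjusted p 8.18e-08). The implied means were 39.1 in WD libraries and 7.86 in ND libraries, and the 95% interval of the rise was 2.90-fold to 8.53-fold. Cxcr6, Ccr7 and Ccr2 were the typical receptors whose interval lay wholly beyond 2-fold, as were Ackr1, Ackr2 and Ackr4 among the atypical ones. Over all tested genes, 0.650% were higher and 5.41% lower by that rule.

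The other typical receptors had mean normalized counts from 11.05 to 55.1 and wider errors than Ccr2 and Ccr7. Xcr1, the XCL1 receptor of cross-presenting dendritic cells (ENSMUSG00000060509, chromosome 9, 123852315 to 123862029), rose by 1.29 ± 0.36 (log2) per the authors' deposited table (adjusted p 0.00225). The implied means were 48.9 in WD libraries and 20.0 in ND libraries. Cxcr1, in humans a receptor for CXCL8 on neutrophils (ENSMUSG00000048480, chromosome 1, 74191785 to 74194631), stood at 1.59 ± 0.50 in the authors' deposited table (adjusted p 0.00711), with implied means of 16.6 in WD libraries and 5.50 in ND libraries. Ccr9, the CCL25 receptor of gut-homing lymphocytes (ENSMUSG00000029530, chromosome 9, 123678439 to 123784330), stood at 1.15 ± 0.37 in the authors' deposited table (adjusted p 0.00811), with implied means of 37.7 in WD libraries and 17.0 in ND libraries. Of the exonic bases of Ccr9, 18.8% lie opposite an unnamed noncoding gene that was not listed. Ccr3, the eotaxin receptor of eosinophils (ENSMUSG00000035448, chromosome 9, 124021972 to 124031689), did not pass. It had a log2 fold change of 1.07 ± 0.45 in the authors' deposited table, with implied means of 74.6 in WD libraries and 35.5 in ND libraries. The lower ends of the 95% intervals of these 4 genes were 1.49-fold, 1.53-fold, 1.35-fold and 1.14-fold in the order named.

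**Figure D3:**
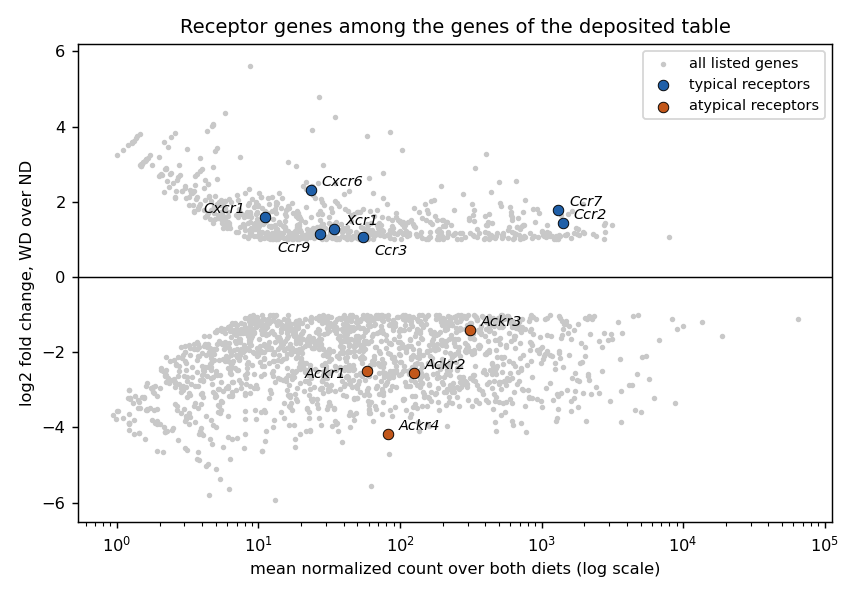
Log2 fold change, WD over ND, against the mean normalized count over both diets (log axis) for the 2386 genes of the authors' deposited table (grey), with typical (blue) and atypical (orange) receptors. Ccr2 and Ccr7 lie among the highly counted genes, and Ackr4 lies near the lower edge of all listed genes of similar count; the empty band is the table's own limit of 2-fold.

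The median log2 fold change was 1.44 over the 7 listed typical receptors, Ccr3 included although it was not called, and -2.53 over the 4 atypical receptors. Over all called genes of the authors' deposited table it was 1.34 among the 526 higher and -2.10 among the 1464 lower. Likeness to other genes could be judged from the fold change alone, since no values over libraries were at hand. Among called protein-coding genes with a mean count within 2-fold of the receptor's, the 2 nearest in log2 fold change were compared. They were taken from pools of 166 (Ccr2) to 474 (Xcr1) genes. Each lay closer to its receptor than the receptor's SE, so they cannot be told from other genes within that error. Likeness in function or in cell of origin was not tested. For Ackr4 they were Sox17, an endothelial transcription factor gene (-4.11 ± 0.25), and Tmem44 (-3.97 ± 0.26) in the authors' deposited table. For Ackr1 they were Dapk2 and Ptprg, for Ackr2 Tcf7l1 and Dchs1, and for Ackr3 Abcc4 and S100a13. For Ccr7 they were Slfn4 (1.80 ± 0.44) and Nlrc5, the activator of MHC class I genes (1.82 ± 0.20), in the authors' deposited table. For Ccr2 they were Fgl2 and Grk3, for Cxcr6 Tlr11 and Il12rb1, for Xcr1 Kynu and Hsh2d, for Cxcr1 Rgs16 and Cd200r3, and for Ccr9 Klra7 and Ctse.

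Position in the genome was not used to choose the receptors, and 5 of the 7 typical receptors lay together. Ccr9, Cxcr6, Xcr1, Ccr3 and Ccr2 occupy 435 kb of chromosome 9 (123678439 to 124113557, mm10), part of a receptor cluster that grew by gene duplication. GENCODE M21 places 9 protein-coding genes wholly within these bounds. Of these, 7 are chemokine receptors, and Ccr1 and Ccr1l1 were the receptors there that were not listed. Lztfl1 and Fyco1, the other protein-coding genes between them, were not listed either. Cxcr6 lies within Fyco1 on the opposite strand without sharing an exonic base. Ackr2 lies on the same chromosome. Its listed neighbours within 500 kb were Snrk (-2.07 ± 0.20) and Vipr1 (-1.79 ± 0.35), which fell, and the noncoding gene Gm26797 (1.58 ± 0.56), which rose, in the authors' deposited table. Around Ackr1 the listed genes went both ways. Within 500 kb of it, Fcer1a and the interferon-inducible genes Ifi206, Ifi209, Ifi213 and Ifi214 rose, and Cadm3 and Ifi208 fell. By the same distance, Acpp near Ackr4, Tmem158 near Ccr9 and Tns1 and Stk36 near Cxcr1 fell, and Gm37503 near Cxcr1 did not pass. Ccr7 had Igfbp4 as its single listed neighbour, 89.8 kb away and of opposite sign (-2.62 ± 0.12), in the authors' deposited table.

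**Figure D4:**
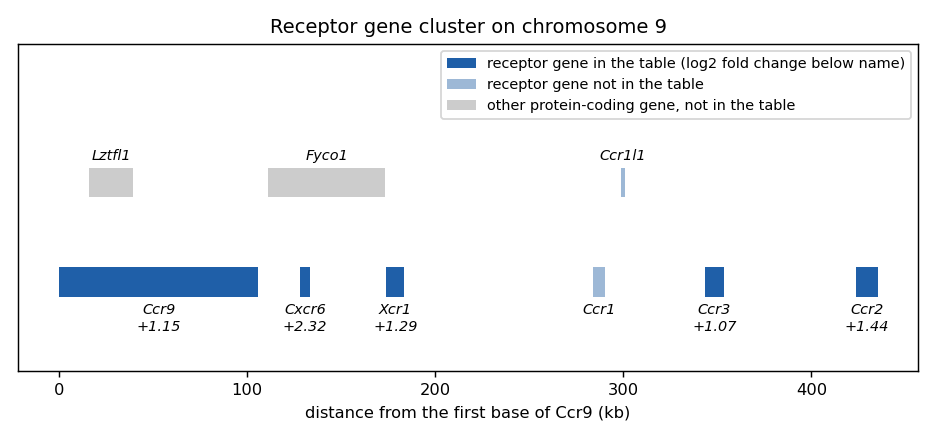
Protein-coding genes between the outer ends of Ccr9 and Ccr2 on chromosome 9, by distance in kb from the first base of Ccr9; boxes span each gene, and the number under a name is its log2 fold change, WD over ND, from the authors' deposited table. All 5 listed genes are receptors with positive fold changes, from 1.07 to 2.32.

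Most ligands of the receptors were not listed. Of 38 chemokine ligand genes, 5 rose, 3 fell and 30 were not listed, that is 13.2% higher and 7.89% lower. Over all tested genes the shares were 3.0% higher and 8.35% lower, so the share of ligands called lower was near that of all genes. Of the 3 ligands of Ccr2 (Ccl2, Ccl7 and Ccl12), only Ccl12 was listed, and the authors' deposited table gave it 1.20 ± 0.41 (adjusted p 0.0150), with implied means of 54.2 in WD libraries and 23.5 in ND libraries. Neither Ccl19 nor Ccl21a, the ligands that Ccr7 and Ackr4 share, was listed, nor was Ccl25, a ligand of Ackr4 and Ccr9. Cxcl12, the ligand of Ackr3 and of Cxcr4, fell by 2.06 ± 0.56 (log2) per the authors' deposited table, with implied means of 153 in WD libraries and 638 in ND libraries. Cxcr4 was not listed. Ccl5, a ligand of Ccr3 and of Ackr1 and Ackr2, rose by 1.73 ± 0.29, and Ccl22, a ligand of Ccr4 and of Ackr2, by 2.05 ± 0.26 in the authors' deposited table. Cxcl9 (1.15 ± 0.46) rose and Cxcl10 (-1.51 ± 0.20) fell in the authors' deposited table, and Cxcr3, which both engage, was not listed. Cx3cl1 rose (1.27 ± 0.29) and Cxcl14 fell (-1.33 ± 0.27) in the authors' deposited table.

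Genes that carry the receptor signal and genes that end it were mostly not listed. Of 26 signalling genes, Gnao1, an inhibitory G protein subunit, fell (-2.22 ± 0.48 at a mean normalized count of 13.6), and Gnai1 (-1.26 ± 0.55, adjusted p 0.0695) did not pass, per the authors' deposited table. Not listed were the other 24, among them Gnai2, Pik3cg, Dock2 and Rac2. Gnao1 alone was 3.85% of the list, below the 8.35% of all tested genes that were called lower. Of 18 genes of desensitisation and uptake, 2 rose, 4 fell and 12 were not listed. That is 11.1% higher and 22.2% lower, against 3.0% and 8.35% of all tested genes. Grk3, a kinase that phosphorylates activated receptors, rose 2.77-fold in the authors' deposited table (1.47 ± 0.13, adjusted p 5.33e-26), with implied means of 1316 in WD libraries and 475 in ND libraries. Rgs16, which speeds the shut-off of G proteins, rose too (1.58 ± 0.42) in the authors' deposited table. Arrb1, the arrestin that uncouples receptors and is also used by atypical receptors, fell by 1.03 ± 0.10 (log2) per the authors' deposited table, with implied means of 874 in WD libraries and 1791 in ND libraries. Rgs3 (-1.64 ± 0.21) and the caveolin genes Cav1 (-1.16 ± 0.22) and Cav2 (-1.64 ± 0.15) also fell in the authors' deposited table. Of 19 receptors for other chemoattractants, S1pr1, which lets lymphocytes leave tissue and is abundant on endothelium, fell (-1.82 ± 0.18) in the authors' deposited table. Gpr33 did not pass (adjusted p 0.0516), and 17 were not listed. S1pr1 alone was 5.26% of this list, also below the 8.35% of all tested genes called lower. No member of that list was called higher, by the authors' DESeq2-type test, at an adjusted p below 0.05, and 1 was at an unadjusted p below 0.05.

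Markers of several cell types moved with the receptor classes, and in bulk RNA fewer cells of a type and less RNA per cell cannot be told apart. All 16 markers of sinusoidal endothelium fell, like the atypical receptors, with a median log2 fold change of -3.24 in the authors' deposited table. Their summed implied mean was 14629 in WD libraries and 92789 in ND libraries, and the smallest p-values belonged to Cldn5 (-4.12 ± 0.20), Egfl7 (-3.50 ± 0.20) and Fcgr2b (-1.38 ± 0.09) in the authors' deposited table. Of 7 lymphatic endothelium markers, Flt4, Lyve1 and Reln fell, Pdpn was listed without passing, and Prox1, Mmrn1 and Ccl21a were not listed. Lyve1 is also in the sinusoidal list and Reln in the stellate cell list. Of 11 stellate cell markers, 8 fell, with the smallest p-values for Bgn, Lrat and Reln. Over all tested genes, 8.35% were called lower. The marker lists were chosen with earlier results of these data known, so their shares are not independent of these data. The part of these cells in the lower atypical receptor values was not tested.

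Among listed leukocyte markers, more rose than fell, where 3.0% of all tested genes were called higher and 8.35% lower. Called higher were 52.2% of T and NK cell, 38.5% of monocyte and 35.3% of dendritic cell markers. For mast cells and basophils it was 85.7%, and for B cells 25%. Called lower were 15.4% of monocyte, 11.8% of dendritic cell and 14.3% of mast cell and basophil markers. Of 23 T and NK cell markers, 12 rose and none fell, with the smallest p-values for Klrk1 (1.87 ± 0.20), Klrd1 and Gzmb in the authors' deposited table. Summed implied means here cover listed markers only, and so do not stand for a whole list. For the 14 listed T and NK cell markers the sum was 3016 in WD libraries and 1073 in ND libraries. All 14 had positive fold changes, so this sum could only be higher in WD. Of 13 monocyte markers, 5 rose and 2 fell, with the smallest p-values among those that rose for Ms4a4c (2.52 ± 0.25), Plac8 and Itga4 in the authors' deposited table. Their summed implied mean, 50133 in WD libraries and 95947 in ND libraries, was lower in WD, and most of it was Fn1, the most abundant listed transcript, which fell. Of 17 dendritic cell markers, Xcr1 among them, 6 rose and 2 fell, and the smallest p-values belonged to Dpp4 and Zbtb46, which fell, and Ccl22. The summed implied mean of the 8 listed dendritic cell markers was lower in WD libraries, 3842 against 4596 in ND libraries. Most of the ND sum was Dpp4, with implied means of 639 in WD libraries and 3116 in ND libraries. Of 7 mast cell and basophil markers, 6 rose and Kit fell. Their summed implied mean was also lower, 963 in WD libraries against 1327 in ND libraries. Most of the ND sum was Kit, with implied means of 379 in WD libraries and 1267 in ND libraries. The sum of the B cell markers was higher, 2389 in WD libraries against 1064 in ND libraries. Of 8 B cell markers Ighm and Ms4a1 rose, and of 12 hepatocyte markers Ass1, Cyp3a11 and Apob rose. None of 9 neutrophil markers was listed, nor was any of 15 Kupffer cell markers, so that the labelled cell type could not be checked from this table. The part of any of these cells in the higher typical receptor values was not tested.

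**Figure D5:**
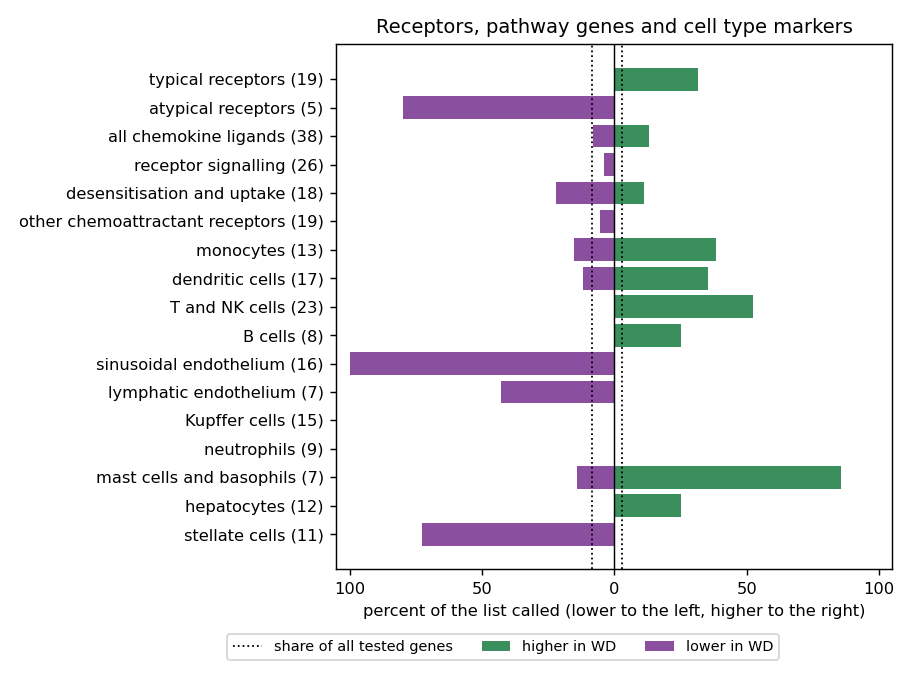
Percent of each gene list called higher (right) or lower (left) in WD at the 0.05 limit on the adjusted p of the authors' deposited table, with the number of genes in the list in parentheses; dotted lines mark the share of all tested genes, 3.0% higher and 8.35% lower. Typical receptors extend to the right (31.6%) and atypical receptors to the left (80.0%). Markers of mast cells and basophils (85.7%), T and NK cells (52.2%), monocytes (38.5%), dendritic cells (35.3%), B cells (25%) and hepatocytes (25%) extend further right than left. Markers of sinusoidal endothelium (100%), stellate cells (72.7%) and lymphatic endothelium (42.9%) extend to the left. The lists were chosen with earlier results of these data known.

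The authors' own enrichment was run on genes with a positive fold change, so atypical receptors could not enter it. At least 1 of the receptors was in 53 of the 373 GO terms of the authors' deposited table, and 30 of the 53 passed a Benjamini p of 0.05, as did 132 of all 373. The GO term of chemotaxis held 12 genes, of which 7 were the typical receptors, Ccr3 included (Benjamini p 5.19e-05 in the authors' deposited table). The KEGG pathway of chemokine signalling held 15 genes with the same 7 receptors among them (Benjamini p 1.15e-05 in the authors' deposited table). Ccr2 and Ccr7 each entered 20 terms that passed, and the other typical receptors 9 to 11 in the authors' deposited table.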

How the data were processed

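Polyadenylated RNA of liver macrophages was sequenced from 4 WD and 4 ND libraries, grouped by their diet label. Per the file headers, the authors' table gives a mean normalized read count (a signal averaged over libraries), a log2 fold change with its SE, a Wald test score, and a p-value with its adjusted p-value, under column names that DESeq2 uses. The build mm10 and, without roles or versions, DESeq, edgeR, featureCounts, HISAT2, STAR, STAR-Fusion and StringTie are named in the submitters' processing notes. Every listed gene had a p-value of at most 0.04995 and an absolute log2 fold change of at least 1.00011, and 77 genes had no adjusted p.

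Genes were called at the authors' adjusted p below 0.05. Intervals are the deposited log2 fold change plus and minus the 95% normal quantile times the SE. Implied means solve the mean count and the fold change for 2 groups of 4 libraries, and are exact only for equal size factors. The number of tested genes, 17531, was recovered from the ratio of p to adjusted p, with whole ranks (within 0.02) for 91.0% of genes, and the step was tested on simulated data (15000 of 15000 genes). Gene positions, exonic lengths and transcripts came from GENCODE M21, in which all 2386 identifiers were found. Coding sequences were the longest open reading frames, aligned with Biopython 1.88. All receptors were named, with fixed lists of ligands, signalling genes and markers, of which at most 10 listed pathway genes and the 3 markers with the smallest p were named. Markers beyond these were named after their values were seen. The receptors and the lists were chosen with earlier results of these data known.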

Additional observations from a re-analysis of the deposited data

How the results depend on the processing

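The end of the 95% interval nearest to no change kept the sign of each of the 11 receptor genes by construction, since the table lists only genes with a p-value below 0.05. As in the report, 6 higher and 4 lower receptors were called at an adjusted p below 0.01, with a mean count of at least 10 and from the fixed receptor list. With the interval wholly beyond 2-fold, 3 higher and 3 lower receptors were left, 2 higher and 1 lower chemokine ligand (5 and 3 in the report), and 1 higher and 3 lower signalling and desensitisation genes (2 and 5 in the report). An adjusted p below 0.01 left 3 higher ligands. At an unadjusted p below 0.05, 1 other chemoattractant receptor, Gpr33, was higher. These limits call fewer or more genes by construction. No paired analysis was possible because the table holds no value of a single library. For the same reason no library could be left out, no other normalization or count model could be run, and depth per library is unknown. Errors are widest where mean counts are low: the SE was 0.36 to 0.50 for the 5 typical receptors with mean counts of at most 55.1, and 0.20 and 0.27 for Ccr2 and Ccr7.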
